A study of Mus musculus with 4 samples.

Results

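Voltage-gated sodium channels open when the membrane depolarises and carry the rapid inward current that starts the action potential. Each channel has a large alpha subunit, which forms the pore and the voltage sensor, and smaller beta subunits, which set its gating and its place in the membrane. The genes described here encode 5 alpha subunits (Scn1a, Scn2a, Scn3a, Scn8a and Scn9a) and 3 beta subunits (Scn2b, Scn3b and Scn4b). The question was where chromatin at these 8 genes was enriched in an immunoprecipitation (IP) of the thyroid hormone receptor TRα1. Peaks were taken as members when their summit lay in the RefSeq span of such a gene or within 30 kb of it. This gave 12 of the 7484 peaks of the series, in the windows of 8 genes out of 21887 protein-coding ones.

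The samples were chromatin from mouse striatum, 3 IP fractions on IgG-coated magnetic beads and 1 input without antibody. Per the title, the animals carried Gad2Cre and ThraGS. The GS tag is an affinity tag that IgG beads hold, and Gad2-Cre is a driver line for GABAergic neurons, which in striatum include the projection neurons and most interneurons. The age and sex of the animals and their number per fraction were not given in the sources used here, and an IP from animals without the tag was not analysed here. One peak list covers the whole series, so there is no value per library and no replicate error. Intervals below are 95% exact intervals for counting error within this list.

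Of the 8 sodium channel genes, 7 had a peak (87.5%, exact binomial interval 47.3 to 99.7), where 32.4% of all protein-coding genes had one. The interval treats the genes as independent, although the windows of Scn2b and Scn4b overlap. The 8 genes were also chosen with earlier results of these data known. Alpha genes had 6 of the peaks and beta genes the other 6. Among alpha genes, 4 of 5 had a peak, and Scn9a, best known from peripheral sensory neurons, had none. Among beta genes, 3 of 3 had a peak. The 12 peaks form 15 gene and peak pairs, because Scn2b and Scn4b are neighbours and share 3 peaks. Outside these 8 genes, 7 other sodium channel genes, Nalcn among them, were counted in the same way. Of those 7, 3 had a peak (42.9%, exact interval 9.90 to 81.6). This interval overlaps that of the 8 genes, and the difference between the shares was not tested.

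Length bears on these shares, since the window follows the gene. The 5 alpha genes span 110 to 176 kb, and among protein-coding genes of 100 to 200 kb 46.7% had a peak, with a mean of 0.821 peaks per gene. The mean over the alpha genes was 1.2. The 3 beta genes span 12.2 to 22.4 kb, and among protein-coding genes of 10 to 25 kb 31.8% had a peak, with a mean of 0.449 per gene. The mean over the beta genes was 3.00, with shared peaks counted for each gene. These length classes were chosen after the members' lengths were known. Counted once over merged windows, alpha genes had 0.582 peaks per 100 kb (exact Poisson interval 0.214 to 1.27) and beta genes 3.36 per 100 kb (1.23 to 7.31). The same density over all protein-coding windows was 0.396 per 100 kb. The alpha and beta intervals overlap narrowly, and they treat peaks as independent, which neighbouring peaks may not be.

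**Figure D1:**
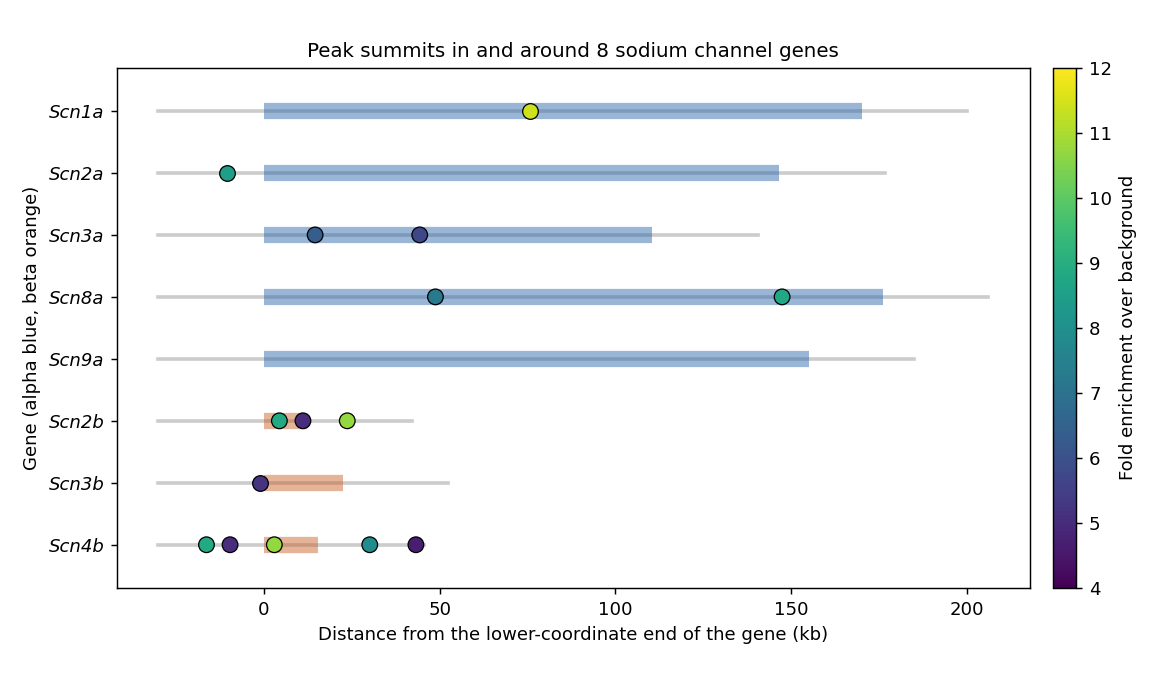
Summits in the windows of the 8 sodium channel genes, by distance in kb from the lower-coordinate end of each gene; thick bars are gene spans, thin lines the window of 30 kb on both sides, and colour is the fold enrichment. Peaks of Scn1a, Scn3a and Scn8a lie inside the long alpha genes, Scn9a has none, and the short genes Scn2b and Scn4b carry 3 and 5.

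The fold enrichment of the 12 peaks over background ran from 4.66 to 11.4 with a median of 7.52 (exact interval of the median 5.2 to 8.86), against 6.91 over all peaks. Their summit pileup, the scaled height of stacked fragments, ran from 14.1 to 61.0 with a median of 22.5 (16.0 to 31.0), against 21.6 over all peaks. Of the 12 peaks, 2 had folds of 10 or more, 16.7%, where 23.9% of all peaks did. The highest fold, at Scn1a, ranked 1283rd in the list. Their width ran from 174 to 567 bp, and its median was 252 bp, against 260 bp over all peaks.

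Alpha and beta peaks overlapped in level. The median fold was 7.85 for the 6 alpha peaks (range 5.71 to 11.4) and 6.51 for the 6 beta peaks (range 4.66 to 10.7). The median pileup was 23.9 for alpha peaks and 18.8 for beta peaks. Pileups of alpha peaks lay close together, from 20.7 to 31.9, while those of beta peaks ran from 14.1 to 61.0. For the fold, the counting intervals of an alpha and a beta peak were apart in 1 of 36 pairs, namely the peak of Scn1a and the weakest of Scn4b. These intervals take the background as fixed and are not adjusted for the number of pairs.

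**Figure D2:**
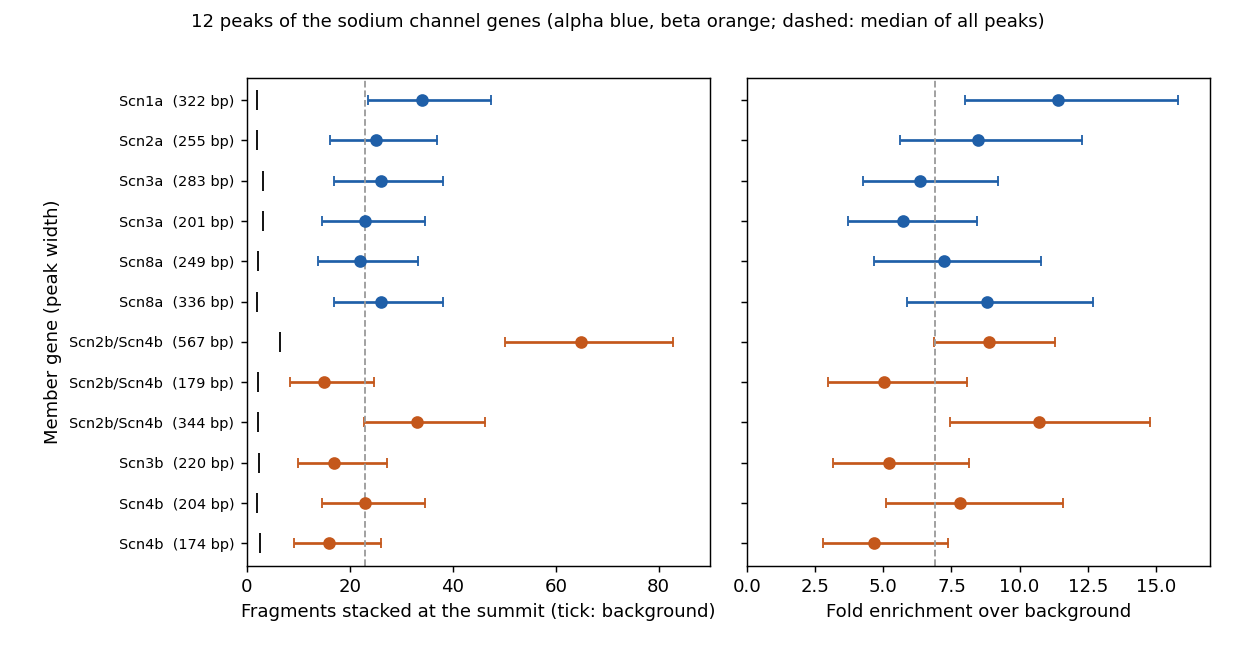
Fragments at the summit (left) and fold enrichment over background (right) for the 12 peaks, with 95% exact Poisson intervals; black ticks are the background in fragments, dashed lines the medians of all peaks. Alpha peaks (blue) hold 22 to 34 fragments, and 1 beta peak (orange) at Scn2b stands at 65 over a background of 6.39.

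Scn1a encodes Nav1.1, the alpha subunit that fast-spiking interneurons depend on. It had 1 peak, at chr2:66346377-66346698 (GRCm38), with 34 fragments at the summit (23.5 to 47.5), a pileup of 31.9 and a fold of 11.4 (8.0 to 15.8). This was the highest fold among the sodium channel genes, at a −log10 q of 23.3. The summit lay inside the gene, 94.3 kb downstream of the annotated start site and 75.7 kb from the other end. No other gene of any type in the table had this summit within 30 kb. The nearest summit outside the gene was 246 kb away.

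Scn2a encodes Nav1.2, an alpha subunit of axons that is abundant in projection neurons. Its peak at chr2:65610260-65610514 had 25 fragments (16.2 to 36.9), a pileup of 23.5 and a fold of 8.47 (5.60 to 12.3). It was the only alpha peak outside an alpha gene, 10.4 kb upstream of the first of 2 annotated start sites of Scn2a. It was 42.8 kb from Scn3a, beyond the window of that gene, and 25.1 kb from the non-coding RNA gene Gm34833.

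Scn3a encodes Nav1.3, an alpha subunit known mainly from embryonic brain. Both its peaks lay inside the gene. The peak at chr2:65471534-65471816 had 26 fragments, a pileup of 24.4 and a fold of 6.35 (4.24 to 9.19). The peak at chr2:65501398-65501598 had 23 fragments, a pileup of 21.6 and a fold of 5.71 (3.71 to 8.44). These were the lowest folds among alpha peaks, although the pileup of the first equals that of the stronger Scn8a peak. The background was 3.00 and 2.96 at the Scn3a summits and 1.89 at that Scn8a summit, and 23.9% of all peaks had a background above 2.9.

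Scn8a encodes Nav1.6, the alpha subunit concentrated at the axon initial segment and the nodes of Ranvier. It too had 2 peaks inside the gene. The peak at chr15:101017160-101017495 had 26 fragments (17 to 38.1), a pileup of 24.4 and a fold of 8.80 (5.87 to 12.7), at 83.7% of the span from the lower-coordinate end. The peak at chr15:100918563-100918811 had 22 fragments (13.8 to 33.3), a pileup of 20.7 and a fold of 7.22 (4.65 to 10.8). Its summit lay between 2 annotated start sites of Scn8a, 48.0 kb downstream of the first and 17.6 kb upstream of the second, and inside the non-coding RNA gene Gm52176. The intervals of the 2 peaks overlap.

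Scn9a encodes Nav1.7. No summit lay within 30 kb of it, and the nearest was 134 kb away, at the Scn1a peak. At the lowest background of the list, 1.89, the weakest peak called anywhere had 11 fragments and a fold of 3.92. The background at Scn9a is not in a list of called peaks, so no limit can be set for an enrichment there.

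Scn1a, Scn2a, Scn3a and Scn9a sit together on chromosome 2 with Scn7a, which encodes an atypical channel of the family. The cluster spans 1328 kb, from 65457118 to 66784910, and with 30 kb on both sides it held 7 peaks. Of these, 4 belonged to the sodium channel genes. The other 3 lay inside Csrnp3, a protein-coding gene between Scn2a and Scn1a, with folds of 12.5, 9.04 and 5.87. The strongest peak of the cluster was thus at Csrnp3, with 47 fragments, and not at a sodium channel gene. From the Scn1a peak upwards, 1365 kb passed without a summit, where the median gap between neighbouring summits was 126 kb. The gap takes in Scn9a and Scn7a, but most of it lies past the end of the cluster, up to the summit at 67711294. Of 7463 gaps between neighbouring summits in the list, 5.19% were at least as long. Long gaps cover a larger part of the genome than their share by number.

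**Figure D3:**
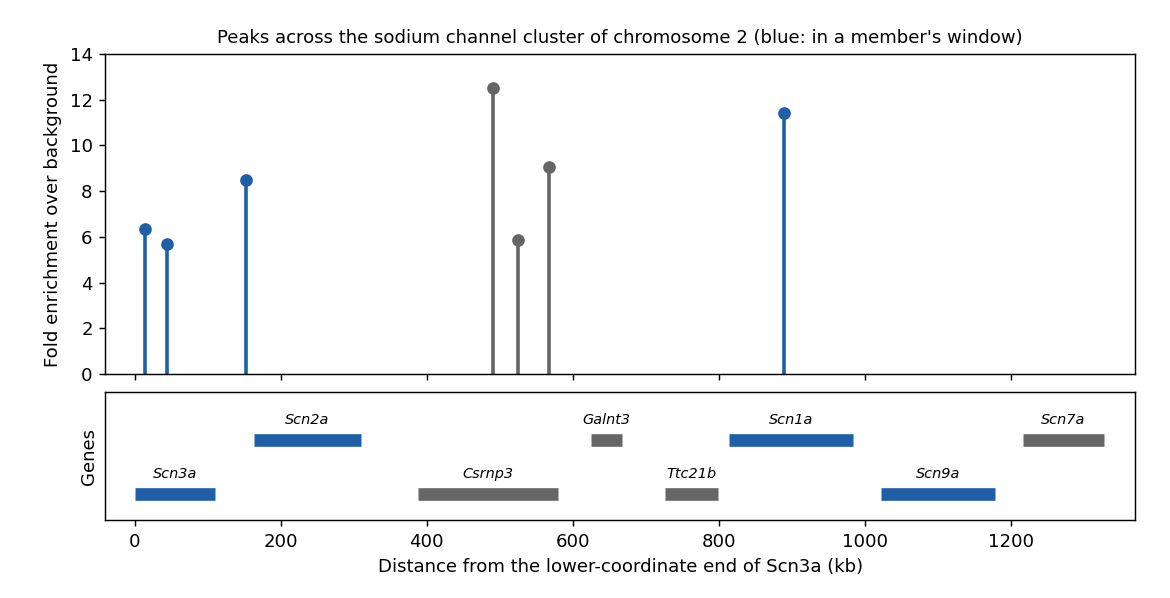
Fold enrichment of the 7 peaks across the sodium channel cluster of chromosome 2, by distance in kb from the lower-coordinate end of Scn3a, with protein-coding genes below. Blue peaks lie in the window of a sodium channel gene and grey peaks in Csrnp3; no peak lies at Scn9a or Scn7a.

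Scn2b and Scn4b encode the beta subunits that are joined to the alpha subunit by a disulfide bond. Scn4b is abundant in striatal projection neurons, and the tail of its protein is known as a blocker of the open channel that gives rise to resurgent current. The genes are neighbours on chromosome 9, separated by 8553 bp. Their joined windows, 96.3 kb long, held 5 peaks, or 5.19 per 100 kb (exact Poisson interval 1.69 to 12.1). At least 3 peaks, as at Scn2b, were found for 4.15% of protein-coding genes, and at least 5, as at Scn4b, for 0.818%.

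The highest pileup of the sodium channel genes was inside Scn2b, at chr9:45121871-45122437. It had 65 fragments (50.2 to 82.8) and a scaled pileup of 61.0, the 335th highest in the list. The counting interval of this fragment count was apart from those of the other 11 peaks. The background there was 6.0, and 1.18% of all peaks had a background of at least 5.9. The fold was therefore 8.86 (6.87 to 11.3), the 2250th highest, and its interval overlapped those of the other 11 peaks. The summit lay 4.40 kb downstream of the start site of Scn2b, 16.3 kb upstream of that of Scn4b, and also inside the non-coding RNA gene Gm10684. A second peak inside Scn2b, at chr9:45128929-45129107, was weak, with 15 fragments, a pileup of 14.1 and a fold of 5.03 (2.96 to 8.07). Both lay within 30 kb of Jaml, which encodes a junctional adhesion molecule-like protein of leukocytes, at 13.7 and 20.5 kb.

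The strongest fold among beta genes was inside Scn4b, at chr9:45141396-45141739. This peak had 33 fragments (22.7 to 46.3), a pileup of 31.0 and a fold of 10.7 (7.44 to 14.8), with a −log10 q of 21.4. Its summit was 2971 bp downstream of the start site of Scn4b and 11.5 kb beyond the upper end of Scn2b, so both genes count it. Its fold is close to that of the Scn1a peak, with overlapping intervals.

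The other 2 peaks of Scn4b lay beyond its upper end and nearer to other genes. The peak at chr9:45168639-45168842 had 23 fragments, a pileup of 21.6 and a fold of 7.82 (5.09 to 11.6), 14.6 kb from Scn4b, 3.99 kb from the protease gene Tmprss4 and 26.9 kb from BC049352. The peak at chr9:45181804-45181977 had 16 fragments, a pileup of 15.0 and a fold of 4.66 (2.79 to 7.39), 27.7 kb from Scn4b and inside Tmprss4. With each peak given to its nearest protein-coding gene, Scn2b kept 2 peaks and Scn4b 1. Just beyond the 30 kb limit, at 31.5 kb from Scn4b, stood a peak of fold 5.79, also inside Tmprss4.

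**Figure D4:**
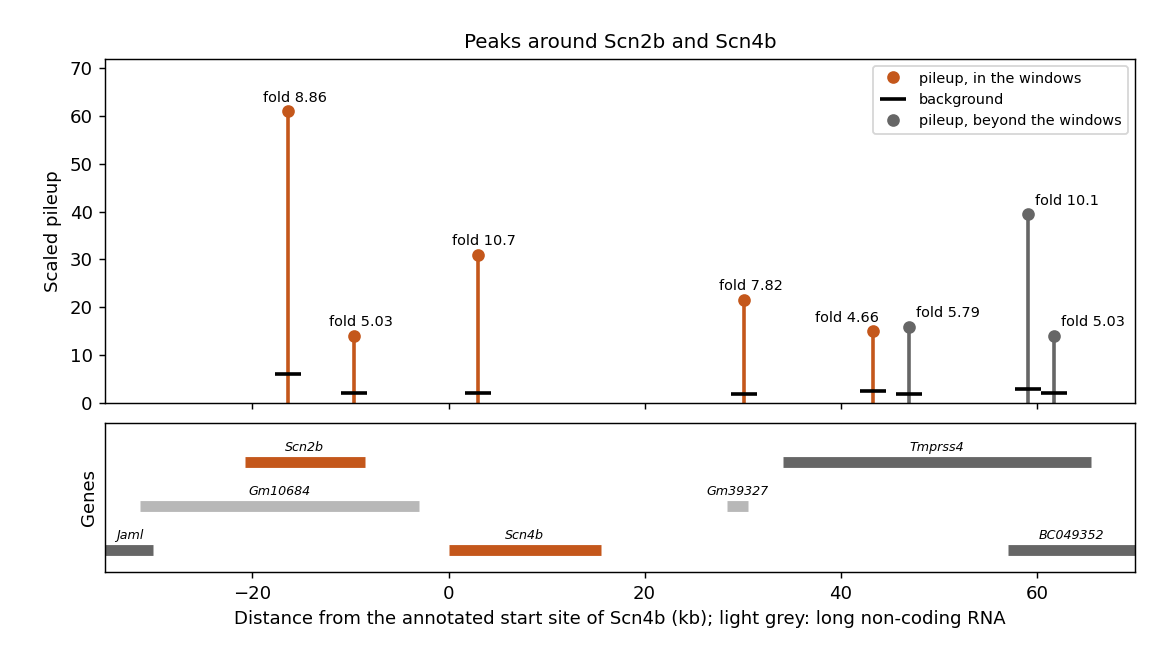
Pileup at each summit (stems) and background (black bars) around Scn2b and Scn4b, by distance in kb from the annotated start site of Scn4b, with genes below. The 5 orange peaks lie within 30 kb of Scn2b or Scn4b and the 3 grey ones beyond; the tallest, in Scn2b, has a pileup of 61.0 over a background of 6.0 and so a fold of 8.86, below the 10.7 inside Scn4b.

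Of the 12 peaks, 1 overlapped an annotated promoter of the RefSeq promoter table, that of the non-coding RNA gene Gm39327 near Scn4b. The summit lay 153 bases upstream of that start site. Its 250 upstream bases are shown because they hold nearly the whole peak, at chr9:45168587-45168836 (GRCm38.p6, minus strand). Capitals mark the 198 bases inside the deposited peak.

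Gm39327 upstream: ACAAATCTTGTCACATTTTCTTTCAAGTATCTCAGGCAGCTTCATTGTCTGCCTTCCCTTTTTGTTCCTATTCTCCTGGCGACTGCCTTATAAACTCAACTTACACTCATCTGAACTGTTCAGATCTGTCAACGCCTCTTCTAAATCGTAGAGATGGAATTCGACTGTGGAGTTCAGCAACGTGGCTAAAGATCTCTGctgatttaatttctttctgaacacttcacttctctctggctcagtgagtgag

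Thyroid hormone receptors are known to bind the hexamer AGGTCA, often as a direct repeat with 4 bases between the copies. A looser form of the repeat has NGGNCA in both copies, where N is any base. The capital stretch above holds neither AGGTCA nor the looser repeat on either strand, and its GC content is 42.4%. Sequences of the other 11 peaks were not analysed here.

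The promoter table, 250 bases before to 50 after each start site, had 8 promoters for 6 of the 8 sodium channel genes, with no entry used for Scn3a and Scn3b. None of the 8 was overlapped by a peak. The full repeat, with AGGTCA in both copies, was in 0 of the 8, and in 0.0152% of all 32851 promoters of this length. The loose repeat, which contains the full one, was in 1 of 8, and in 1.99% of all promoters. The single hexamer was in 2 of 8, and in 16.3% of all promoters. Both strands were searched. The 3 matches are shown in 30 bases each, 5′ to 3′ along the gene, with the match in capitals, because they are what these promoters hold of the searched patterns. The loose match holds no AGGTCA itself.

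Scn8a first promoter, loose repeat on the opposite strand, chr15:100870471-100870500, plus strand: cgcacggTGACCGGGCGTGCCCGggagcaa
Scn8a second promoter, hexamer, chr15:100936088-100936117, plus strand: ggaccattacaaAGGTCAcccaagccactc
Scn1a promoter, hexamer, chr2:66440806-66440835, minus strand: gtaagtctgtctAGGTCAagtgtaggagac

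The Scn8a matches begin 167 and 171 bases upstream of their start sites, and the Scn1a match begins 15 bases into the transcript. The nearest Scn8a summit was 17.6 kb from the second promoter and the Scn1a summit 94.3 kb from its promoter, so no deposited peak covers these letters.

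Scn3b encodes the beta subunit beta3, which joins the channel without a covalent bond. Its peak, at chr9:40267916-40268135, had 17 fragments (9.90 to 27.2), a pileup of 16.0 and a fold of 5.2 (3.16 to 8.14). The summit lay 1211 bp outside the lower-coordinate end of Scn3b and 25.2 kb from Gramd1b, which encodes a sterol transfer protein. Its −log10 q was 5.23, and 2 of the other 11 peaks had a lower one.

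Of the 6 alpha peaks, 5 lay inside an alpha gene, and the alpha spans made up 73.6% of their merged windows. Of the 6 beta peaks, 3 lay inside a beta gene, and the beta spans made up 28.1% of theirs. A summit inside the span was found for 3 of 5 alpha genes, where 36.3% of protein-coding genes of 100 to 200 kb had one, and for 2 of 3 beta genes, where 9.43% of those of 10 to 25 kb had one. The difference in position between alpha and beta peaks was not tested. No summit was within 1 kb of an annotated end of these 8 genes, and the closest was 1084 bp from the upper end of Scn2b. Of the 12 peaks, 6 lay in the window of more than 1 protein-coding gene, and all 6 were beta peaks. Among the 6100 peaks in any protein-coding window, 42.7% were shared in this way. Exons and introns were not used here.

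**Figure D5:**
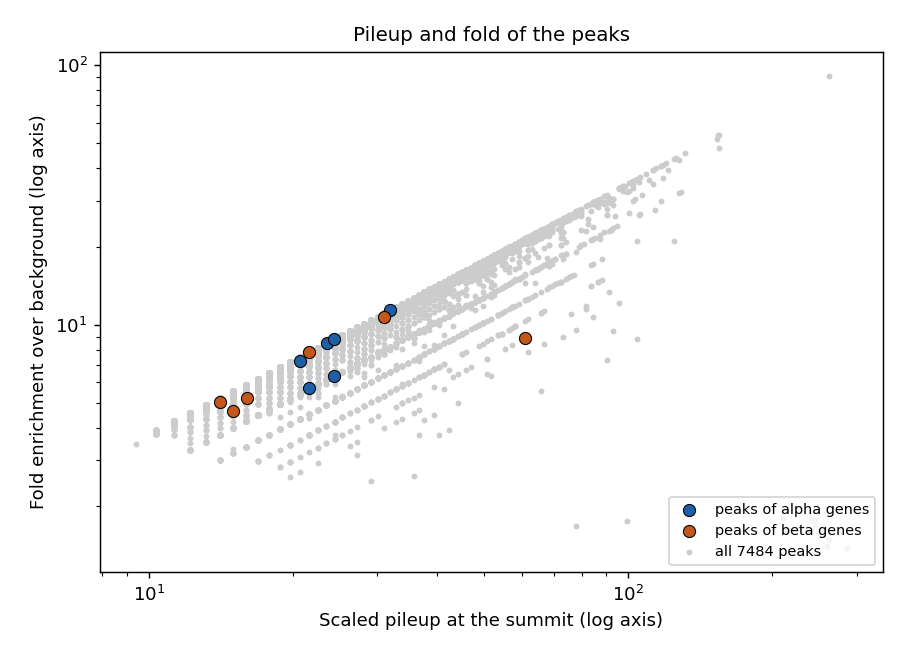
Scaled pileup (x) and fold enrichment (y) of the 7484 peaks on log axes, with the peaks of alpha genes in blue and of beta genes in orange. The 12 peaks run from a fold of 4.66 to 11.4, or from the 9.67th to the 82.6th percentile of the list, and the Scn2b peak at a pileup of 61.0 lies below the main band of peaks.

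Genes for proteins that hold or modulate the channels were counted in the same way, beside the 32.4% of all protein-coding genes and the 46.7% of those of 100 to 200 kb. The median span was 559 kb for the FGF homologous factor genes, 91.3 kb for those of the axon initial segment and nodes, and 237 kb for the NALCN complex. None of these medians lies within 100 to 200 kb, so these lists are not matched for length. Of 4 FGF homologous factor genes, whose proteins bind the tail of the alpha subunit, 2 had a peak, Fgf12 with a highest fold of 7.53 and Fgf14 with 4.57. Of 11 genes of the axon initial segment and nodes, 7 had a peak (63.6%, exact interval 30.8 to 89.1). Trim46, which organises microtubules of the initial segment, had a fold of 23.1 in a peak whose summit also lies in Krtcap2. Sptbn4, the beta-IV spectrin gene, had 17.6. The adhesion molecule gene Nfasc had 7 peaks of up to 11.7, and Ank3, which encodes ankyrin-G, the anchor of sodium channels, had 4 of up to 9.12. Of the genes of the NALCN sodium leak channel complex, 3 of the 3 found in the table had a peak. Nalcn, which encodes the channel itself, had 2 peaks with a highest fold of 7.68. Of its auxiliary genes, Unc79 had 30.3, in a peak 29.6 kb away and inside Prima1, and Unc80 had 6.74.

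The other voltage-gated cation channels had higher single peaks. Voltage-gated potassium channel genes had a peak at 20 of 40 members (50%, exact interval 33.8 to 66.2), with a median fold of 6.93, and folds of 35.4 at Kcnq3, 24.4 at Kcna5 and 21.5 at Kcnh2. Voltage-gated calcium channel genes had a peak at 18 of 26 members (69.2%, exact interval 48.2 to 85.7), with a median fold of 8.15. Their highest folds were 27.0 at Cacnb2, 24.4 at Cacna1c and 20.8 at both Cacna1i and Cacng4. Several of these summits lay outside the gene, by 7.82 kb at Cacnb2, 20.1 kb at Cacna1i and 13.5 kb at Cacng4. Among the potassium channel genes named, the distance was 9.36 kb at Kcnh2 and 9 bp at Kcna5. The highest fold among the 8 sodium channel genes, 11.4, was below each of these 7 folds. The potassium and calcium channel genes had more distinct peaks, 39 and 57 against 12 at the sodium channel genes. A highest value tends to rise with the number of peaks, and the median fold at the sodium channel genes was 7.52. Over all protein-coding genes the share with a peak was 32.4%. It was 31.8% over those of 10 to 25 kb and 46.7% over those of 100 to 200 kb. The median span of the potassium channel genes, 32.3 kb, lies in neither length class. The intervals of both families overlap that of the sodium channel genes, and gene lengths differ between the families, with median spans of 129 kb for the sodium, 32.3 kb for the potassium and 104 kb for the calcium channel genes.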

How the data were processed

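One peak list of the whole series was used. The submitters' processing notes name the aligner Bowtie2 (version 2.3.4.2), the peak caller MACS2 (version 2.1.1.20160309.0) and the genome builds mm10 and GRCm38, but no settings, and nothing used here tells whether IP fractions were pooled. The authors deposited the pileup signal at each summit, the fold enrichment as a ratio to local background, and p-values and q-values as −log10. The background was obtained by dividing pileup + 1 by the fold and subtracting 1. The Poisson tail of the pileup over that background matched the deposited −log10 p to 0.01 for 7475 of 7484 peaks. Pileups lay on a grid of step 0.939 (largest residual 0.00900), and 1 step was read as 1 fragment. Library depths were not analysed here. PCR duplicates can make fragments dependent, so intervals (Clopper-Pearson, exact Poisson, order statistics) cover counting error only.

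Spans came from a RefSeq table of GRCm38.p6, and start sites and sequences from its promoter table. Python 3.11.15, pandas 2.3.3 and scipy 1.17.1 were used. The peak-to-gene step was tested on simulated data. No test was run over peaks or genes. The members, the lists and the rule for named genes (all members, genes sharing their peaks, other Scn genes with a peak, the 4 highest folds per list; some of these are not reported here) were chosen with earlier results of these data known. Nalf1 and Nalf2 were not matched. The alternatives numbered 11.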

Additional observations from a re-analysis of the deposited data

How the results depend on the processing

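Over 11 alternatives, 83 of 88 values were kept, which means within 1.5 times for a count and within the interval of the main median otherwise. The 83 include alternatives that left every value as in the main count. Leaving out the 1% extremes, or peaks of high background, removed none of the 12 peaks, so no value could move there. Counting a peak by any of its bases, in place of its summit, also gave the same 12 peaks. The number of sodium channel genes with a peak ran from 5 to 7 of the 8 members under the 10 alternatives that keep these members. With the gene span alone it was 5 of 8, where 13.7% of all protein-coding genes had a summit inside. The window of 30 kb gave 7 of 8 against 32.4%. Shares of all protein-coding genes under the other alternatives were not computed. With all 14 Scn genes counted in place of these 8, 9 had a peak, beside the same 32.4%. The gene span alone gave 3 beta peaks in place of 6. Within 30 kb of either gene end there were 3 alpha peaks in place of 6, since the middle of the long genes is left out by construction. A −log10 q of at least 10 left 8 of the 12 peaks (66.7%), 3 of them beta peaks, where 53.3% of all peaks passed. Peaks above the median fold left 7 of 12, with 3 beta peaks, where 3714 of all 7484 peaks lie above it. The median fold stayed between 6.79 and 8.80 and the median pileup between 21.6 and 24.4. The 8.80 came from keeping only peaks above the median fold, which raises the median fold by construction. The −log10 q filter, with a median fold of 8.64, also favours high folds. Both values count among the 83 kept, but they cannot show that the median fold is stable. With 12 peaks the interval of the main median is wide, so a median counts as kept over a broad range. No paired analysis was possible because the list holds no value per library, and for the same reason no fraction could be left out. Small fragment counts leave weak peaks uncertain: at 15 to 17 fragments, as at Scn3b, the counting interval of the fold spans more than a factor of 2.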

Other observations

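The peaks at Scn2b and Scn4b continue past the 30 kb windows, a feature looked at after its values were seen. From the first Scn2b summit upwards, 8 summits stood within 78.1 kb, the last 3 in Tmprss4 with folds of 5.79, 10.1 and 5.03. The summits of 10.1 and 5.03 also lay in BC049352. Below the first Scn2b summit, 100 kb held 0 summits. Runs of at least 8 summits in that length took in 0.708% of all summits, and runs of at least 5 within 59.6 kb, as in the joined windows of Scn2b and Scn4b, took in 4.0%.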
